A study of Mus musculus with 6 samples.

Results

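The replication-dependent histone genes of the mouse encode the linker histone H1 and the core histones H2A, H2B, H3 and H4. They were taken as every gene whose GENCODE M21 symbol begins with Hist1h, Hist2h, Hist3h or Hist4h, a choice made by name alone. Of 70 such symbols, 66 had a transcript among the 37086 genes of the deposited tables, and Hist1h3h, Hist1h3i, Hist1h2bh and Hist1h2bm had none. Each gene was represented by its transcript with the most tags (reads counted to a feature) summed over all libraries. The 66 genes comprised 6 H1, 20 H2A, 17 H2B, 10 H3 and 13 H4 genes. M21 marks 3 of them as pseudogenes, Hist1h2aj, Hist1h2al and Hist3h2bb-ps. On GRCm38 the 52 genes with a Hist1 symbol were on chromosome 13, where Hist1h2al, at chr13:51202688-51203065, lay apart from the cluster of the others. The 10 Hist2 genes were on chromosome 3, the 3 Hist3 genes on chromosome 11, and Hist4h4 was alone on chromosome 6. Groups called Hist1 to Hist4 below follow the symbol.

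Core histones wrap DNA into nucleosomes, and linker histones bind the DNA between them. The mRNAs of these genes are made mainly during DNA synthesis and end in a short stem-loop in place of a poly(A) tail. The stem-loop is bound by SLBP, and the cut behind it is guided by the U7 small nuclear RNA, so that the messages appear and disappear with S phase. A minority of histone transcripts skip this cut, run on to an ordinary poly(A) signal or are spliced to a further exon. In the ganglia, neurons that have left the cell cycle lie beside dividing progenitors and glia. The cDNA kits used here prime on poly(A) tails.

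RNA came from dorsal root ganglia, which flank the spinal cord and hold sensory neurons with their glia, of wild type C57BL/6J embryos at 14.5 days post coitum (TS22), with 18 embryos combined into 1 pool. Dilutions of total RNA were made from 1 stock at 100 ng per µl. The high-volume group received RNA in 9 µl and the low-volume group in 1 µl, each with its own SMARTer low-input kit, so that volume and kit cannot be told apart, and each was run with 3, 10 and 30 ng of RNA, 1 library apiece. All 6 libraries were technical repeats of that pool, with cDNA sheared for 3 min and 12 cycles of library PCR, and every SD, SE and p below measures technical spread alone.

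The libraries held 14160401 to 31524211 tags, with the 2 lowest totals in the 3 ng libraries. Markers of sensory neurons (5 of 5) and of glia (4 of 4) reached a mean RPKM of 1, as did 4 of 4 erythroid markers, and 0 of 3 spinal cord markers did. RPKM is the authors' value, tags scaled to the length of the feature in kilobases and to the size of the library.

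The stem-loop was sought in the GENCODE M21 transcript sequences, because a message that is cut behind it ends without a tail. The pattern was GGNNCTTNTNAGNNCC on the transcript strand, with the first 6 letters the reverse complement of the last 6. It was present in 44 of 66 histone genes (66.7%) and in 10 of 36936 other genes (0.0271%). Those 10 included H2afx, a variant histone known to carry both kinds of end, and Trim17, whose first exon lies within Hist3h2a. The remaining 22 histone genes held no match in these transcripts, which says only that the letters were not found in the annotated sequence. Stretches from 6 abundant stem-loop genes, and from 2 low genes whose spelling no other member has, are shown with the 16 letters of the stem-loop in capitals and 5 letters on either side, from the M21 transcripts of GRCm38. The coordinates given after the sequences are those of the capitals.
Hist1h4d: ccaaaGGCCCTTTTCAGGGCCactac
Hist1h4i: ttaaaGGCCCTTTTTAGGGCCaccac
Hist3h2ba: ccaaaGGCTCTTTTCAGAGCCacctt
Hist3h2a: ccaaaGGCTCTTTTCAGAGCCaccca
Hist1h1e: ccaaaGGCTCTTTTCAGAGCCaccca
Hist1h1c: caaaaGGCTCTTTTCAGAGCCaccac
Hist2h2ac: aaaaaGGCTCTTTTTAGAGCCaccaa
Hist1h3g: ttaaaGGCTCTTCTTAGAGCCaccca

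They lay at chr13:23581950-23581965 (plus strand, Hist1h4d), chr13:22040966-22040981 (minus strand, Hist1h4i), chr11:58949349-58949364 (plus strand, Hist3h2ba), chr11:58955172-58955187 (plus strand, Hist3h2a), chr13:23621782-23621797 (minus strand, Hist1h1e), chr13:23739512-23739527 (plus strand, Hist1h1c), chr3:96220418-96220433 (minus strand, Hist2h2ac) and chr13:23535889-23535904 (plus strand, Hist1h3g). All of them were in the 3′ UTR, since the stop codon was 21 to 58 bases upstream of the stem-loop, with a median of 32, in the 43 genes where it could be measured.

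The 44 stem-loops had 8 spellings. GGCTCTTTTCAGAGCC occurred in 24 genes, of which 10 were H2A, 6 H2B, 5 H3 and 3 H1. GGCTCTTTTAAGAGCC occurred in 6 genes, 3 of them H3, 2 H2B and 1 H1, and the spellings of Hist2h2ac and Hist1h3g in 1 gene each. The 12 H4 stem-loops used 4 other spellings. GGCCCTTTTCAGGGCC was found in 7 H4 genes, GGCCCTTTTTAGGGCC in 2, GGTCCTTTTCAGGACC in 2 and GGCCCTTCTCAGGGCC in 1. No spelling was shared between H4 and another histone type among these 44 transcripts.

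Most histone genes had few tags. Of the 66 genes, 62 had at least 1 tag, and 16 (24.2%) had a mean RPKM of 1 or more, against 33.8% of all genes. The median RPKM was 0.193, against 0.115 over all genes, which include noncoding genes and pseudogenes. By that measure the members were not lower, but protein-coding genes alone were not set beside them. The mean RPKM was 10 or more in 6 genes, from 0.1 to 1 in 29 and under 0.1 in 21. Together the 66 genes held 29360 tags, 0.0213% of all tags, and Hist3h2a, Hist1h4d and Hist3h2ba held 60.1% of them. The 4 genes without a tag were Hist1h2aj, Hist1h2an, Hist1h2ba, the testis-specific H2B gene, and Hist2h2aa2.

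Near-identical copies limit the single-gene values. More than 50% of the 50-letter words of the transcript occurred in another gene in 35 of the 66 genes. The median shared percentage was 29.8% in the 16 genes with a mean RPKM of 1 or more, 65.3% in the 50 genes below it and 89.4% in the 4 genes without a tag. How reads with several matches were counted is not given in the sources used here. Exons of another gene overlapped 12 members, and the tables put Hist1h2br, Hist1h2bq, Hist2h2aa1 and Hist2h2aa2 at other positions than M21 does, so values under those 4 names are uncertain.

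**Figure D1:**
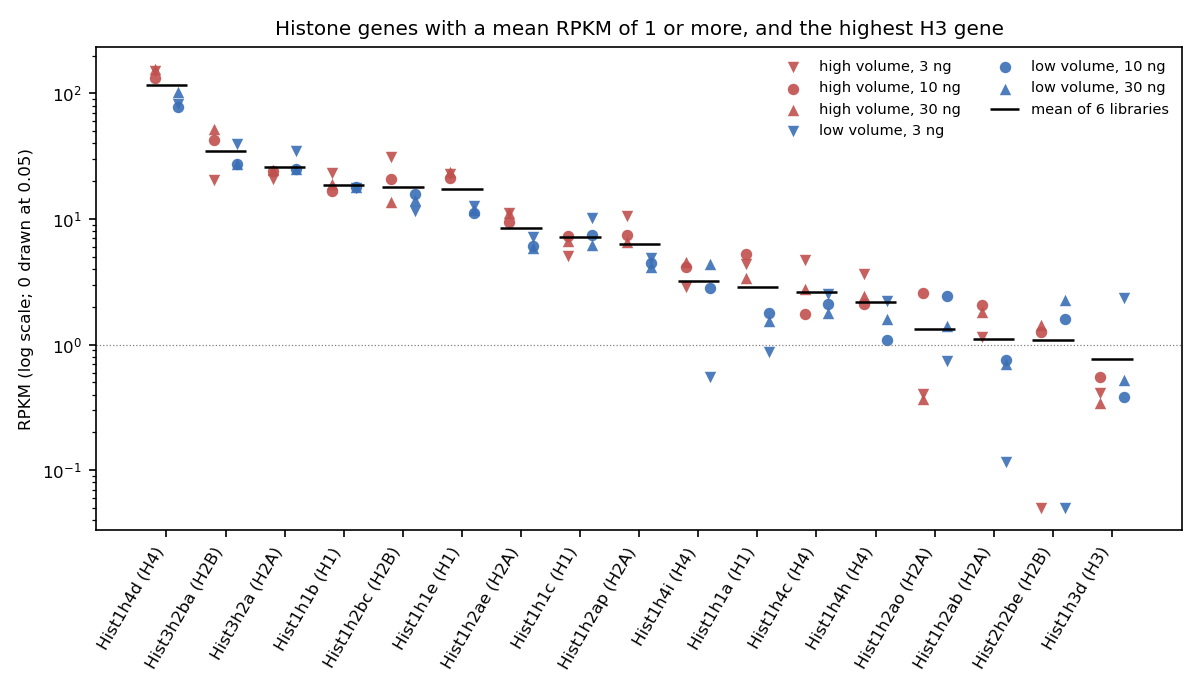
RPKM (log scale) of the 16 histone genes with a mean of 1 or more and of Hist1h3d, in each of the 6 libraries. Colour gives the volume group, marker shape the RNA input, and the black bar the mean of 6 libraries. Hist1h4d lies above every other gene in every library, and Hist2h2be is at 0 in both 3 ng libraries.

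The linker histones contributed 20.4% of the histone tags from 6 genes. Hist1h1b had an RPKM of 23.0, 16.7 and 19.0 in the high-volume libraries at 3, 10 and 30 ng and of 17.5, 18.0 and 17.9 in the low-volume libraries. Its mean was 18.7 ± 2.26 (SD, n = 6), the smallest SD relative to the mean among the 16 genes with a mean of 1 or more, and its groups overlapped. Hist1h1e, at chr13:23621755-23622502 on the minus strand, had 22.8, 21.1 and 23.7 at high volume and 12.7, 11.2 and 11.9 at low volume. All 3 high-volume libraries of Hist1h1e lay above all 3 low-volume ones. Hist1h1c had 5.05, 7.26 and 6.64 at high volume and 10.2, 7.48 and 6.18 at low volume, and its groups overlapped. Hist1h1a, at 4.41, 5.23 and 3.37 against 0.870, 1.797 and 1.54, was higher in every high-volume library. Hist1h1d (0.179) and the testis-specific Hist1h1t (0.0633) had a mean RPKM below 1.

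The H2A genes held 31.9% of the tags, most of them in Hist3h2a. Its RPKM was 20.9, 24.0 and 24.7 at high volume and 35.1, 24.9 and 25.1 at low volume, in order of input, and all 3 high-volume values were below all 3 low-volume ones. Hist1h2ae had 11.1, 9.50 and 11.2 against 7.13, 6.06 and 5.90, with no overlap in the other direction. Hist1h2ap had 10.6, 7.45 and 6.56 against 4.90, 4.44 and 4.14, likewise without overlap. Hist1h2ap and Hist1h2ao (mean 1.32 ± 0.992) share 93.1% and 93.5% of their 50-letter words with other genes, so the split between such copies is uncertain. Hist1h2ab had a mean of 1.10 ± 0.735, and the other 15 H2A genes were below 1. Hist1h2aa, known from the testis, had 3 tags in all.

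The H2B genes held 20.6% of the tags. Hist3h2ba had an RPKM of 20.4, 42.6 and 52.0 at high volume and of 39.5, 27.3 and 27.3 at low volume. At 10 and 30 ng its high-volume libraries were the higher ones, and at 3 ng the order was the opposite. Hist1h2bc had 31.3, 20.6 and 13.5 against 11.5, 15.7 and 14.3, with overlapping groups and its highest value in the high-volume 3 ng library. Hist2h2be was at 0, 1.26 and 1.42 against 0, 1.59 and 2.25.

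Among the 66 genes the H3 genes were the lowest type. Hist1h3h and Hist1h3i, which had no transcript to count, are not part of this order. Hist1h3h shares the most 50-letter words with Hist1h3a, Hist1h3b and Hist1h3g, and how reads of such copies were counted is not known. None of the 10 reached a mean RPKM of 1, and together they held 316 tags, 1.08% of the histone tags. The highest, Hist1h3d, had 0.414, 0.557 and 0.341 at high volume and 2.37, 0.386 and 0.519 at low volume. Its mean of 0.764 ± 0.789 rested on the low-volume 3 ng library, which gave 50 of its 124 tags. Without that library its mean was 0.443, below the 0.570 of Hist1h3e over the same libraries, so the first place among the H3 genes rested on it. All 10 H3 genes had at least 1 tag, and 9 of 10 carried a stem-loop.

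The H4 genes held 26.0% of the tags, and 1 of the 13 genes, Hist1h4d, gave 6798 of those 7642 tags. Hist1h4d, at chr13:23581598-23581990 on the plus strand, had an RPKM of 152, 131 and 156 at high volume and of 81.8, 78.0 and 103 at low volume. Its mean was 117 ± 34.3 (SD, n = 6), and its groups did not overlap. Its lowest library, at 78.0, was above the highest library of the next gene, Hist3h2ba, at 52.0. Hist1h4i followed with a mean of 3.23 ± 1.51, Hist1h4c with 2.62 ± 1.12 and Hist1h4h with 2.19 ± 0.873. In the order of levels among the 16 genes, 14 of 15 neighbouring pairs had overlapping ranges over the libraries, so by these ranges only the first place was set apart. The ranges pool both volumes and all inputs. Compared within each library, Hist1h1e also lay above the next gene, Hist1h2ae, every time.

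The annotated end behind the stem-loop varied widely. M21 continued for 3 to 4884 bases past it, with a median of 91. At least 100 further bases were annotated in 22 genes, whose median RPKM was 0.426 and of which 8 reached a mean of 1. Fewer than 100 were annotated in the other 22, whose median RPKM was 0.104 and of which 4 reached a mean of 1. In the 22 genes without a match the median was 0.155, and 4 reached a mean of 1. These are descriptions of an annotation that was itself built from cDNA, and transcripts of these genes share sequence. The split follows M21, while RPKM was measured on the counted interval. In Hist1h4d, Hist1h1e and Hist1h4c, all among the 8, that interval ended 25, 27 and 29 bases past the stem-loop. Under a split by counted bases these genes would fall on the side below 100, so the contrast depends on the annotation used.

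**Figure D2:**
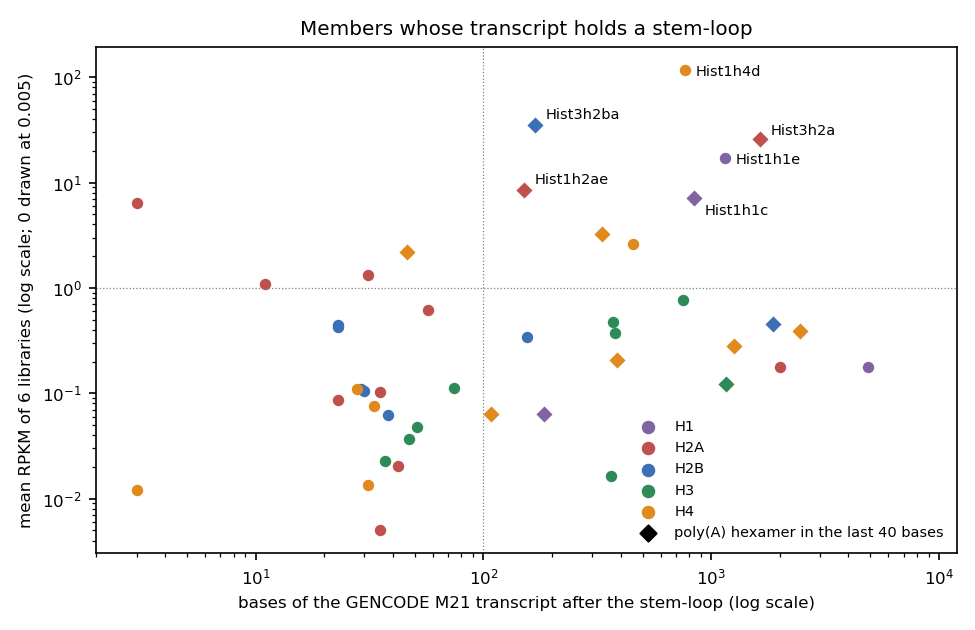
Mean RPKM of 6 libraries (log scale) against the number of bases that the M21 transcript holds after the stem-loop (log scale), for the 44 genes with a stem-loop; colours give the histone type and diamonds a poly(A) hexamer in the last 40 bases. Of the 22 genes right of the dotted line at 100 bases 8 have a mean RPKM of 1 or more, and of the 22 left of it 4. RPKM comes from the counted interval, which ended 25, 27 and 29 bases past the stem-loop in Hist1h4d, Hist1h1e and Hist1h4c.

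The poly(A) hexamers AATAAA and ATTAAA were sought on the transcript strand within the last 40 bases of the M21 transcript. They were present in 14 of 66 histone genes (21.2%), against 46.0% of the other genes and 68.8% of the other protein-coding genes. Among the 16 histone genes with a mean RPKM of 1 or more 7 had a hexamer there, and among the 50 below 7 did. Of the 6 genes with a mean of 10 or more, 2 had one there. The highest gene, Hist1h4d, had 1 hexamer past its stem-loop, an ATTAAA that ended 320 bases before the M21 end. Hist1h1e had 0 past its stem-loop. A hexamer past the stem-loop is shown in capitals for 3 abundant genes, as the place where a message that skipped the histone cut could end.
Hist3h2ba: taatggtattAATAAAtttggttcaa
Hist3h2a: gtatatgcccAATAAAataagagtac
Hist1h1c: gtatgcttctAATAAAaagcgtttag

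The printed stretches lay on the plus strand at chr11:58949497-58949522, chr11:58956787-58956812 and chr13:23740332-23740357, and the hexamers ended 21, 28 and 20 bases before the M21 end. The Hist3h2a stretch was outside the interval that the authors counted. For the highest gene the counted interval stopped shortly after the stem-loop. It ended 25 bases past it in Hist1h4d, where M21 goes on for 770 bases, and 27 bases past it in Hist1h1e, where M21 goes on for 1153. Tags of any longer RNA beyond those ends did not enter the counts used here.

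Tags past the stem-loop were countable in Hist3h2a, at chr11:58954685-58956674 on the plus strand. Its first 708 bases, which hold the stem-loop, coincide with exon 1 of Trim17, and the following 1282 bases begin 205 bases after the stem-loop. That second stretch held 3009 of the 7580 tags (39.7%), with 30.5% to 45.1% in single libraries. Its RPKM was 14.6, 16.4 and 11.7 at high volume and 21.4, 17.2 and 14.9 at low volume, with a mean of 16.0 ± 3.24 (SD, n = 6). The first stretch had 43.4 ± 9.71. Both stretches were thus covered in 6 of 6 libraries, the first more densely in each. Of the tags assigned to Trim17, 85.8% to 97.6% lay in that shared exon, and its other exons had a mean RPKM of 0 to 2.16.

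Transcripts with 2 or more exons were annotated by M21 for 5 genes, all of them H2B: Hist1h2bc, Hist1h2be, Hist1h2bp, Hist1h2bq and Hist1h2br. These genes held 7.11% of the histone tags. Nearly all of that was Hist1h2bc, at chr13:23684199-23692488 on the plus strand, whose 2 counted exons of 423 and 313 bases are parted by an intron of 7554 bases. The counted exons hold 736 bases, and the M21 transcript holds 1156. No stem-loop was found in its spliced sequence. Exon 2 had an RPKM of 48.5, 38.5 and 21.9 at high volume and of 19.4, 28.0 and 26.1 at low volume. Exon 1 had 18.6, 7.40 and 7.38 against 5.59, 6.51 and 5.57, so that exon 2 was the denser in 6 of 6 libraries. The ratio of exon 2 to exon 1 in RPKM was 3.87 ± 1.02 (SD, n = 6), from 2.60 to 5.21. Other genes share 30.6% of the 50-letter words of the M21 transcript. How these words divide between the exons, and their part in the ratio, was not tested. The intron had 42 tags and a mean RPKM of 0.0315.

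Exon 2 thus held 1375 of the 1866 tags of Hist1h2bc, 73.7%, and from 65.8% to 79.4% in single libraries. Tags in exon 2 show RNA from the distal exon, and the tables give no count of reads across the junction. Hist1h2be, with an intron of 34949 bases, had 12 tags in exon 1 and 163 in exon 2, with a mean RPKM of 0.0222 in the intron. Its mean RPKM of 0.458 ± 0.276 was below 1 over the whole transcript. The other 3 genes of this kind had 5 to 33 tags in their chosen single-exon transcripts.

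**Figure D3:**
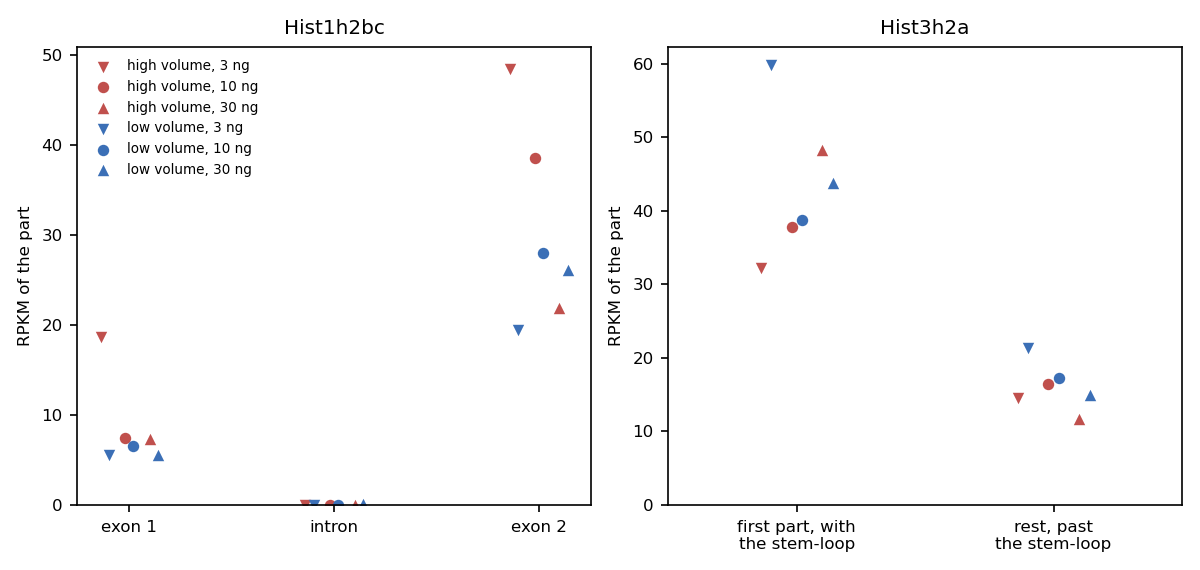
RPKM (linear axis from 0) of the parts of Hist1h2bc (left: exon 1, intron, exon 2) and of Hist3h2a (right: the stretch with the stem-loop and the rest past it) in each of the 6 libraries, coloured by volume and shaped by input. Exon 2 of Hist1h2bc is above exon 1 in every library and the intron lies near 0, and the rest of Hist3h2a stays between 11.7 and 21.4.

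Variant histones, which come from genes outside these clusters and mostly have polyadenylated mRNAs, had a median RPKM of 34.4 over 11 listed genes, against 0.193 over the 66 replication-dependent genes. All 11 reached a mean of 1. H2afz had 441 ± 37.1, H3f3b 323 ± 66.0, H3f3a 175 ± 20.0 and H2afv 77.8 ± 12.0 (SD, n = 6). For H3, the highest replication-dependent gene was Hist1h3d at 0.764 over 6 libraries, and for H2A it was Hist3h2a at 25.8. H2afx, with its stem-loop and longer form, had 17.2 ± 5.38.

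Genes for histone mRNA processing, histone chaperones, which carry the proteins, and genes of S phase were measured in the same libraries. Of 14 genes for histone mRNA processing 13 reached a mean RPKM of 1, among them Cpsf3, the nuclease of the cut (37.6 ± 8.63), Lsm10 of the U7 particle (34.8 ± 4.65), the cap-binding subunit Ncbp2 (30.6 ± 3.59) and Slbp (26.8 ± 10.7). Of 15 histone chaperones 15 did, led by Npm1 (363 ± 24.4), Rbbp4 (111 ± 12.4), Nap1l1 (83.9 ± 8.04) and Rbbp7 (54.6 ± 9.62). Of 21 genes active in S phase 20 did, including Pcna, the sliding clamp of DNA polymerase (30.5 ± 3.92), both ribonucleotide reductase subunits Rrm2 (21.4 ± 9.20) and Rrm1 (18.3 ± 3.55), and the helicase subunit Mcm6 (18.3 ± 3.77). Of 9 other RNAs that lack a poly(A) tail 5 reached a mean of 1, with Rn7sk, which restrains transcription elongation, at 30.7 ± 3.88. In bulk RNA, fewer dividing cells and less RNA per cell cannot be told apart.

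Differences between the high- and low-volume groups, which also differ in kit, were read from an edgeR quasi-likelihood fit over 16120 genes. In it 25 members passed the count filter. The filter asks for enough tags in any 3 libraries, so a gene can pass through 1 volume group alone, as Hist1h3e did at high volume. After Benjamini-Hochberg adjustment 0 of the 25 were past 0.05, against 0.0062% of all genes tested. Without adjustment 4 of 25 (16.0%) had p under 0.05, against 6.67% of all genes, and all 4 were higher at high volume, where the background is 3.36%. With DESeq2, 1 member, Hist1h4d, passed (3.93% of the genes that had an adjusted p passed), 23 of the 25 members had no adjusted p, and 4 had an unadjusted p under 0.05, against 8.95% of all genes.

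The log2 difference, high minus low volume, of Hist1h4d was 0.89 ± 0.17 (SE; edgeR adjusted p = 0.535, DESeq2 adjusted p = 0.000662). That of Hist1h1e was 1.07 ± 0.23 (edgeR adjusted p = 0.553), with higher values in 3 of 3 high-volume libraries. Hist1h1a at 1.78 ± 0.62 (edgeR adjusted p = 0.691) and Hist1h2ae at 0.89 ± 0.34 (edgeR adjusted p = 0.745) made up the 4. In the 10 and 30 ng libraries alone Hist1h4d (0.80 ± 0.12, edgeR adjusted p = 0.0117), Hist3h2ba (0.91 ± 0.15, edgeR adjusted p = 0.0157) and Hist1h1e (1.08 ± 0.19, edgeR adjusted p = 0.0178) passed, 12.0% of the 25 members, against 1.65% of all genes (274 calls) in a fit with 1 residual degree of freedom.

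The median log2 difference of the 25 members was 0.48, and 16 of 25 (64.0%) were above 0, against a median of 0.02 and 51.9% above 0 over all genes tested. In the Hist1 cluster 14 of 19 were above 0, and in the other clusters 2 of 6. Scaling by total counts gave a member median of 0.36 and a median over all genes of -0.10. Leaving out 1 library at a time moved the member median between 0.04, without the low-volume 30 ng library, and 0.73, without the high-volume 3 ng library; without the high-volume 10 ng library it was 0.17.

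CPM is the count scaled to the library total. By RPKM, 7 of 25 members (28.0%) had all 3 high-volume libraries above all 3 low-volume libraries, against 4.03% of all genes tested. They were Hist1h1a, Hist1h1e, Hist1h2ab, Hist1h2ae, Hist1h2ap, Hist1h3e and Hist1h4d. Hist1h3e passed the count filter through its high-volume libraries alone, with 7, 19 and 16 tags at 3, 10 and 30 ng against 0, 8 and 12. Hist1h2ab, with 9, 27 and 26 tags against 1, 11 and 12, also depended on them to pass. The order of these genes is therefore no support for a volume difference. Hist1h2be and Hist3h2a (8.0%) had the opposite order, against 15.0% of all genes. With TMM-scaled CPM 9 members (36.0%), now also Hist1h1b and Hist1h4h, were above, against 8.1% of all genes, and Hist1h2be alone (4.0%) was below, against 7.28%.

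**Figure D4:**
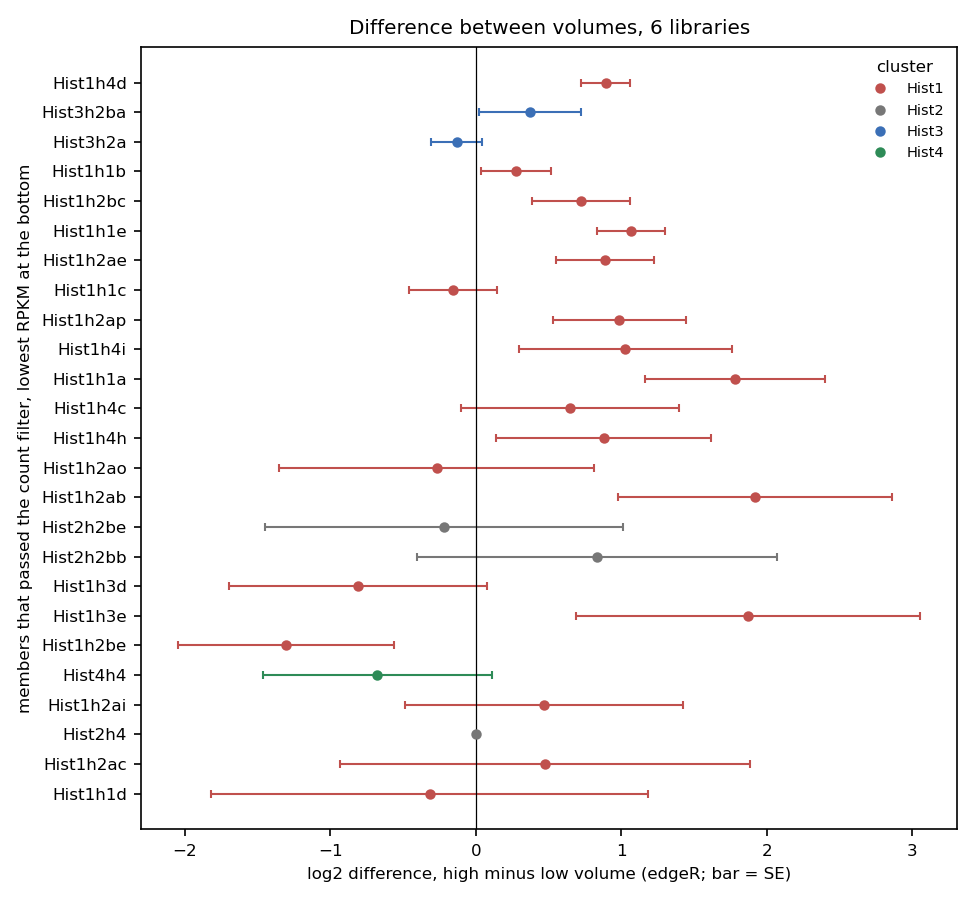
Log2 difference between high and low volume, with its SE, from edgeR over 6 libraries for the 25 members that passed the count filter, coloured by gene cluster and ordered by mean RPKM. Hist2h4, at -0.0019, is drawn without its SE, which is a ratio of 2 values near 0. Hist1h4d and Hist1h1e lie at 0.89 and 1.07 with the smallest errors relative to their size, and the low members at the bottom spread widely on either side of 0.

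Summed over all 66 genes, the tags were 225, 236 and 248 CPM in the high-volume libraries at 3, 10 and 30 ng and 212, 182 and 189 CPM in the low-volume libraries. The means were 236 ± 11.8 and 194 ± 15.4 (SD, n = 3 each), with no overlap. For the Hist1 cluster they were 154 ± 8.92 and 105 ± 2.85, and for the Hist3 cluster 76.6 ± 15.4 and 81.6 ± 16.2, with overlapping libraries. By type, H4 had 69.9 ± 5.47 and 42.5 ± 6.21 and H1 had 49.3 ± 0.477 and 39.2 ± 3.57, both without overlap. Hist1h4d gave 6798 of the 7642 H4 tags and of the 17522 Hist1 tags, so these sums are not separate results. H2B had 48.6 ± 6.63 and 38.7 ± 0.848, also without overlap. H2A, at 66.4 ± 4.48 and 71.1 ± 12.7, and H3, at 1.91 ± 0.741 and 2.83 ± 1.53, overlapped. Without Hist1h4d the sum over the other 65 genes was 173 ± 11.9 and 157 ± 17.5, and those groups overlapped. Without Hist1h4d, Hist3h2a and Hist3h2ba, the 3 genes with the most tags, it was 96.6 ± 3.89 and 75.9 ± 2.05, with no overlap. The groupings by type and by cluster count the same genes, and no share over all genes is set beside these overlaps.

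**Figure D5:**
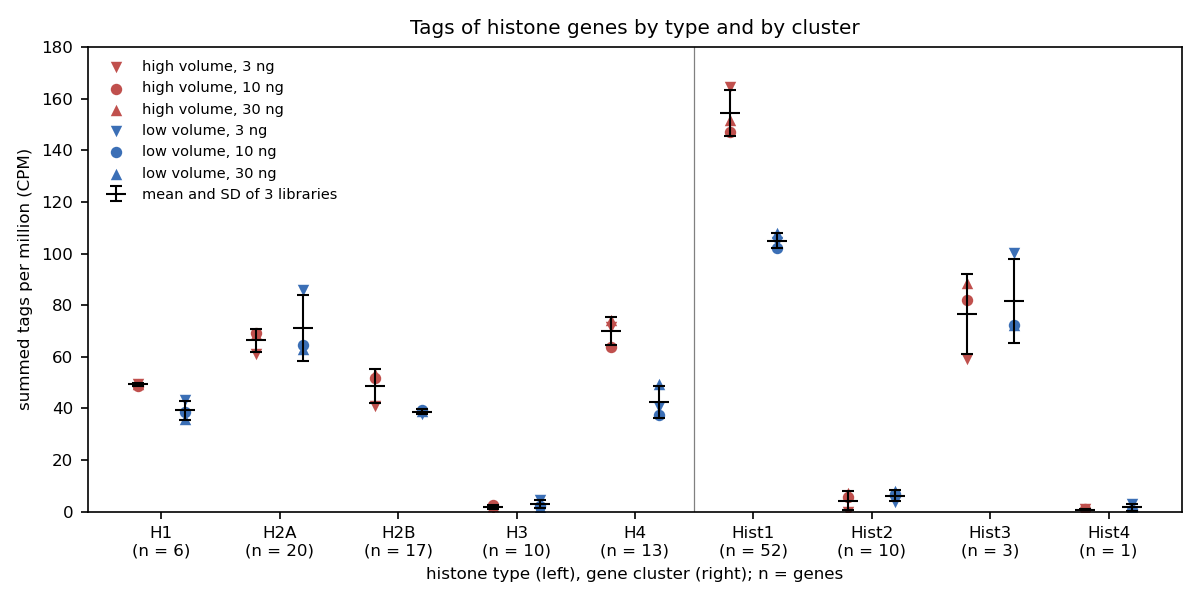
CPM summed over the genes of each histone type (left) and gene cluster (right) in each of the 6 libraries, coloured by volume and shaped by input, with the mean and SD of the 3 libraries of each volume in black. H4, H1 and the Hist1 cluster are higher in every high-volume library, and H3, Hist2 and Hist4 lie near 0. Hist1h4d gave 6798 of the 7642 H4 tags and is also part of the Hist1 sum.

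Other lists and features were set beside the volume difference. The 4 erythroid markers were all above 0, with a median log2 difference of 0.51, and summed to 3434 to 3730 CPM at high and 2809 to 3327 CPM at low volume. Markers of sensory neurons summed to 8634 to 9959 CPM at high and 10116 to 10884 CPM at low volume, and markers of glia to 1064 to 1153 and 1235 to 1298 CPM, both lower in every high-volume library. Of the single genes, 2 of 5 neuron markers and 2 of 4 glia markers were above 0, so the sums do not hold for each gene. Median log2 differences of these lists were -0.03 and -0.12. Endothelial markers were above 0 in 3 of 3 genes (median 0.08), fibroblast markers in 2 of 3 (0.22) and macrophage markers in 1 of 3 (-0.10). Histone chaperones were above 0 in 11 of 15 genes (median 0.09) and histone mRNA processing genes in 9 of 14 (0.19). The 21 S phase genes had a median of -0.14, with 7 above 0, and summed to 531 to 615 CPM at high and 726 to 730 CPM at low volume. The 11 variant histones had a median of 0.22, yet summed to 2132 to 2337 CPM at high and 2419 to 2578 CPM at low volume. The 4 tested RNAs without a tail had a median of -0.21, and all 9 listed summed to 12.6 to 16.6 CPM at high and 15.8 to 17.5 CPM at low volume. Among these lists 0 genes passed the adjusted edgeR threshold for volume. The median transcript length of the 66 histone genes was 519.5 bases against 2820 bases over all genes tested, and the median GC content of the 25 tested was 52.8% against 50.1%. With the replicate block the member median was 0.50 without and 0.27 with the GC correction, and with it Hist1h4d was at 0.94 ± 0.13 and Hist1h1e at 1.08 ± 0.22. The part of the cell types, of S phase genes and of length in the histone values was not tested.

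The number of members detected was lowest at 3 ng. At least 1 tag was found for 27 and 32 histone genes in the high- and low-volume 3 ng libraries, for 48 and 53 at 10 ng and for 55 and 51 at 30 ng. The 3 ng libraries also had the fewest tags, and the part of depth was not tested. All 6 libraries had a tag for 23 genes, and 26 genes with a tag elsewhere were at 0 in both 3 ng libraries. No share over all genes is set beside these counts, so they do not set the members apart from other genes. Among the 19 members with 50 to 1000 tags in all, 3 (15.8%) were at 0 in both, namely Hist1h2ac, Hist2h2bb and Hist2h2be, against 7.03% of all genes of that size.

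Hist2h2be was the clearest of these, an H2B gene of the Hist2 cluster at chr3:96221121-96223738 whose 50-letter words occurred in no other gene. It had 85 and 105 tags in the high-volume 10 and 30 ng libraries, 121 and 200 in the low-volume ones, and 0 in both 3 ng libraries. The lowest of the 4 positive libraries, at 3.62 CPM, was at least 17.1-fold higher than the high-volume 3 ng library and at least 19.2-fold higher than the low-volume one, taking 3 tags per library as the most that a count of 0 allows. Hist2h2bb, which lies wholly within exons of another gene, had 12, 27, 9 and 15 tags in the same 4 libraries and 0 at 3 ng.

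In the edgeR fit 0 of 25 members had an input slope past the adjusted threshold, against 0.0% of all genes. Without adjustment 2 (8.0%) had p under 0.05, against 7.77%: Hist2h2be at 1.76 ± 0.68 per doubling of RNA (edgeR adjusted p = 0.625) and Hist2h2bb at 1.37 ± 0.56. DESeq2 called Hist2h2be (2.17, adjusted p = 0.0151), against 0.228% of all genes. With 1 library left out the Hist2h2be slope lay between 0.99, without the low-volume 3 ng library, and 2.70, without the low-volume 30 ng library. It was 1.16 without the high-volume 3 ng and 2.67 without the high-volume 30 ng library, and 0.23 in the 10 and 30 ng libraries alone. These slopes depend on how counts of 0 are treated and set no bound.

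Several rare members took many of their tags from 1 library. The low-volume 3 ng library gave 50 of the 124 tags of Hist1h3d, 50 of 152 of Hist4h4, 23 of 50 of Hist2h3c2, 13 of 23 of Hist1h2af and 11 of 13 of Hist2h2ab. The high-volume 10 ng library gave 16 of the 26 tags of Hist1h4j, and the high-volume 3 ng library 13 of the 25 of Hist1h2bb. These examples were chosen after their values were seen. More than 50% of the summed CPM came from 1 library in 2 of the 19 members with 50 to 1000 tags, Hist1h3d and Hist2h3c2 (10.5%), against 7.48% of all genes of that size, a share near the background. The library with the highest CPM was the high-volume 30 ng library for 17 members, the high-volume 10 ng library for 14 and the low-volume 3 ng library for 13. It was the high-volume 3 ng library for 7, the low-volume 30 ng library for 6 and the low-volume 10 ng library for 5. No share over all genes is set beside these counts. Tags carry no molecular identifiers, so copies made by PCR and separate molecules cannot be told apart.

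A difference between volumes that depends on input was tested as an interaction. With edgeR 0 of 25 members passed after adjustment, against 0.0% of all genes, and 2 (8.0%) had an unadjusted p under 0.05, against 8.36%. They were Hist3h2ba, whose log2 difference between volumes had a slope of 0.55 ± 0.16 per doubling of RNA (edgeR adjusted p = 0.583), and Hist1h2bc, at -0.48 ± 0.18. DESeq2 was not run for the interaction.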

How the data were processed

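Total RNA of 1 pool, copied to cDNA with SMARTer kits, was sequenced as 6 libraries. The tools named in the submitters' processing notes are Bowtie2 2.1.0, TopHat2 2.0.8 and CASAVA 1.8, with the build GRCm38.p1; for the counting program, its use of strand and reads with several matches, the entry is: not given in the sources used here. Per the file headers, the deposited tables hold a whole-number tag count and the authors' RPKM for each transcript, exon and intron. Coordinates are 1-based on GRCm38.

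Transcripts were named with GENCODE M21, which matched 89664 of 93615, 86.2% at identical coordinates; 3951 stayed out. Each of 37086 genes was represented by its transcript with the most tags, and these held 14160401 to 31524211 tags per library. The edgeR 4.0.16 test in R 4.3.3 was applied to counts (quasi-likelihood, TMM, filterByExpr, volume plus centred log2 input, 3 residual degrees of freedom), with Benjamini-Hochberg adjustment over 16120 genes and a threshold of 0.05. SEs were derived from the F statistic. The steps were tested on simulated data. DESeq2 1.42.0, total-count scaling, no filter, the input as a block, a GC correction, the longest transcripts, the 10 and 30 ng libraries alone and leaving out each library were the alternatives. Sequences come from the M21 transcripts. A count of 0 was taken to allow 3 tags, which covers counting error only.

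The members and lists were chosen with earlier results of these data known. Named were the members with a mean RPKM of 1 or more, the highest of each histone type, members past a threshold or the count filter, and the 4 highest genes of each comparison list; others were named after their values were seen.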

Additional observations from a re-analysis of the deposited data

How the results depend on the processing

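With 3 libraries a group from 1 pool and 3 residual degrees of freedom, the number of calls depended on the fit, while levels did not. The count of all genes that differed between volumes was 1 with edgeR in 6 libraries, 274 in the 10 and 30 ng libraries, 179 with DESeq2, 11 without the filter on low counts, and 0 both with the replicate block on input and with that block and a GC correction. Input is a factor of the design and not a shared batch; with the replicate block the count of histone genes stayed at 0. Leaving out 1 library gave 0 (without the low-volume 3 ng library) to 2 (without the high-volume 30 ng library) genes. For the histone genes the count of 0 became 3 in the 10 and 30 ng libraries and 1 with DESeq2, and stayed at 0 with any 1 library left out. The count of all genes with an input slope went from 0 to 1 in the 10 and 30 ng libraries, 36 with DESeq2 and 2 without the filter; for histone genes it became 1 with DESeq2. The cause of these shifts was not tested.

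Of 18 histone genes whose volume difference was followed over all alternatives, 14 never changed sign. Hist3h2a went from -0.13 to 0.090 and Hist1h1c from -0.16 to 0.16 in the 10 and 30 ng libraries. With 1 library left out Hist3h2a ranged from -0.24 to 0.054 and Hist1h1c from -0.36 to 0.13, above 0 without either 3 ng library. Hist1h2ao ranged from -1.79 to 0.32 and Hist2h2be from -2.55 to 1.86, the latter without the low-volume 10 ng library. The number of histone genes with a mean RPKM of 1 or more was 15 to 17 with 1 library left out and 20 at a level of 0.5. Members below an RPKM of 0.1 rest on a few tags and did not pass the count filter, so differences among them were not tested in the main fit.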
